A study of Arabidopsis thaliana with 30 samples.

Results

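A set of 148 genes stood above time-matched controls in systemic leaves of Arabidopsis thaliana 30 min after waterlogging, but no longer at 60 min. They were taken from 32820 genes measured by RNA sequencing. Members were chosen by their levels in the WT libraries. A gene entered the set if its mean over the 21 wild-type libraries was at least 5 FPKM (fragments per kilobase and per M mapped fragments, a level scaled to gene length and sequencing depth). Its mean log2(FPKM + 1) in waterlogged wild-type leaves also had to exceed that of the time-matched controls by at least 0.8 at 30 min and by at most 0.1 at 60 min. Genes that the files name WRKY, ERF, ZAT, JAZ, CML, XTH, LOX or MPK were left out, which removed 16 of 164 genes. That filter acts on the names in the files. Genes of these families under another file name therefore stayed in, for example TCH4, which is also an XTH, and STZ, which is also a ZAT. So did TCH2, which is also a CML, and ERF105, listed only by its locus tag. Of the 148 members, 133 code for proteins and 15 are small or noncoding RNA genes.

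The systemic leaves came from Col-0 (wild type, WT) plants and from plants labelled rbohD, which carry a mutation in the NADPH oxidase gene RBOHD. The 10 groups of 3 libraries were WT untreated at 0, 10, 30 and 60 min, WT waterlogged for 10, 30 and 60 min, rbohD untreated at 0 and 60 min, and rbohD waterlogged for 60 min. Each repeat was composed from 15 plants per genotype and time point according to the design text, and the labels give neither plant age nor the kind of rbohD allele. The p-values measure the spread between these pooled samples. Of 12495 genes at or above 5 FPKM in WT, 312 met the condition at 30 min.

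When roots are flooded or a leaf is wounded or heated, calcium, reactive oxygen and hydraulic signals travel through the plant within minutes. RBOHD makes superoxide at the cell surface and passes the oxidative signal from cell to cell. Early-response genes of plants, many of them known from touch, wounding or treatment with fungal chitin or bacterial flagellin, rise within minutes of such signals, and their transcripts are often short-lived. CAMTA proteins, calmodulin-binding transcription activators, bind a CGCG core in many such promoters, and WRKY factors bind the W-box, whose core is TTGAC.

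Both cores are marked in capitals in 5 promoter windows, each the 250 bases before the annotated gene start, read 5′ to 3′ on the gene's strand from the RefSeq TAIR10.1 genome. GTCAA is TTGAC on the opposite strand. The windows of PHI-1 (chr1:12851733-12851982, plus strand), AT1G07135 (chr1:2190785-2191034, minus strand) and CYP707A3 (chr5:18371022-18371271, minus strand) belong to 3 of the 4 protein-coding members with the largest rise at 30 min among those that hold TTGAC, the fourth being ERF105, whose window overlaps a neighbouring gene. Those of AT4G29780 (chr4:14579313-14579562, plus strand) and AT1G66090 (chr1:24601783-24602032, plus strand) were added after the values were seen, because they hold both cores.
PHI-1: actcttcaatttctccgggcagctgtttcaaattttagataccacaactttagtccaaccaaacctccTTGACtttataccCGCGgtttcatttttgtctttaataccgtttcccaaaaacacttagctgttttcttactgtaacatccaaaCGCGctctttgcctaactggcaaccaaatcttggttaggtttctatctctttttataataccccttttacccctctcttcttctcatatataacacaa
AT1G07135: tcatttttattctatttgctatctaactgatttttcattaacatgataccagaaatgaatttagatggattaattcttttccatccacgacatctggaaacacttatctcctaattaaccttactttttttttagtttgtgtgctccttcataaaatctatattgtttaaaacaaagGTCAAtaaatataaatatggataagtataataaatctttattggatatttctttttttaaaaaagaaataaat
CYP707A3: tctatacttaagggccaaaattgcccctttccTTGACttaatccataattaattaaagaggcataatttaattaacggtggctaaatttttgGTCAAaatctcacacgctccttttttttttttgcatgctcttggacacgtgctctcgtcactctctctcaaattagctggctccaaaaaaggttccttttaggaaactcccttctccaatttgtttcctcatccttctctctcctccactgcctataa
AT4G29780: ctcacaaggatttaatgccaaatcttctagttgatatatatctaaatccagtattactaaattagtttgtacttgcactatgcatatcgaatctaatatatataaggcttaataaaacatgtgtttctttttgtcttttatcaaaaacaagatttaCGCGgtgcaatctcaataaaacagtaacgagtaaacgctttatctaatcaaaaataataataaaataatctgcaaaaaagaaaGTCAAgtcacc
AT1G66090: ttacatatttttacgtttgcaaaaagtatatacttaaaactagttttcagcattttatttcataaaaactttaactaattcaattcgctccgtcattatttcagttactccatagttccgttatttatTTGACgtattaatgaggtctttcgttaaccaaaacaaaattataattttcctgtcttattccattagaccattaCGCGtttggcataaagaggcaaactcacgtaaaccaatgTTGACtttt
PHI-1 has 2 CGCG and 1 TTGAC, AT4G29780 has 1 of each, AT1G66090 has 1 CGCG and 2 TTGAC, and CYP707A3 has 2 TTGAC and AT1G07135 1, with no CGCG in those 2 windows.

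The depth implied by the authors' intervals was 10.9 M to 13.3 M fragments per library, and replicate libraries correlated across genes at 0.974 to 0.988. Leaf markers were high, with RBCS1A, the small subunit of Rubisco, at 12065 to 18206 FPKM, and all 7 root markers stayed at or below 0.923 FPKM, with EXPA7 at 0 in 30 libraries. RBOHD itself, which is a member, checks the genotype labels. It stood at 17.5, 17.1 and 17.6 FPKM in WT at 0 min and at 19.99, 21.3 and 21.7 FPKM in the libraries labelled rbohD. It was thus not lower under the mutant label at 0 min. In untreated leaves at 60 min it was lower, at 12.9, 13.1 and 12.4 FPKM against 21.2, 24.1 and 24.96 FPKM in WT, without overlap. Since the transcript does not mark the genotype at both times, the genotype is given as labelled throughout. The 18S rRNA gene split the libraries: 10 stood at 4050 to 5754 FPKM, namely the 9 labelled rbohD and replicate 3 of WT waterlogging at 60 min, and the other 20 stood at 1473 to 2640 FPKM. In leaf tissue, more RNA per cell and more cells of a type cannot be told apart.

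The rise and its end in WT chose the members and are given as a description. Across the members the difference at 30 min ran from 0.80 to 5.80 on the log2 scale with a median of 1.48, and at 60 min the median was -0.29 and the highest value 0.095. By limma, a linear model fitted to log2(FPKM + 1) of 17491 genes with Benjamini-Hochberg adjusted p under 0.05, 135 members were called higher at 30 min, against 7.78% of all genes tested (4.10% were lower), and 69 lower at 60 min, against 15.0% (14.7% were higher). The rule used both differences, so nothing is read from these counts. Waterlogged leaves at 60 min were often below the controls rather than level with them: 127 members had a difference under 0 and 48 a difference under -0.5. Both sides moved between 30 and 60 min. The waterlogged mean fell in all 133 protein-coding members, with a median change of -1.43, and the control mean was higher at 60 than at 30 min in 123, with a median change of 0.30. In 36 the waterlogged mean at 60 min was under the WT level at 0 min. The rule favours high waterlogged and low control levels at 30 min, and the reverse at 60 min. These counts therefore follow in part from the choice of members, and nothing more is read from them.

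**Figure D1:**
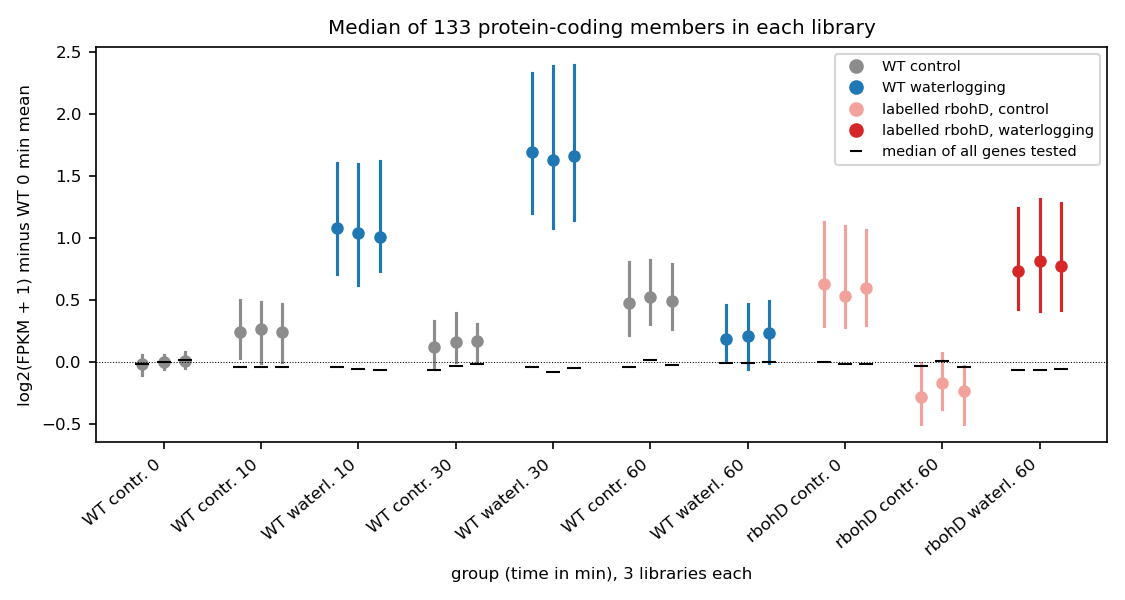
Median over the 133 protein-coding members of log2(FPKM + 1) minus the WT 0 min mean (y axis) in each library of 10 groups (x axis), with bars from the lower to the upper quartile and black dashes for the median of all genes tested. Waterlogged WT libraries stood at 1.01 to 1.08 at 10 min, 1.63 to 1.69 at 30 min and 0.18 to 0.23 at 60 min, and waterlogged libraries labelled rbohD at 0.73 to 0.81 at 60 min.

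Members close to the thresholds show how the set was bounded. AT5G04760 and AT1G77890 entered with differences of 0.80 and 0.81 at 30 min, while AOC2, an allene oxide cyclase of jasmonate synthesis, and AT5G16200 stayed out at 0.80 (0.796 before rounding) and 0.79. At 60 min AT5G41100 and AT1G68410 entered at 0.095 and 0.088, and AT4G23870 and AT2G24550 stayed out at 0.11 and 0.13. By level AT5G03315 and AT2G19710 entered at 5.03 and 5.06 FPKM, and GPAT2 and AT2G39650 stayed out at 4.97 and 4.77 FPKM.

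The WT libraries at 10 min entered the rule through the mean level, not through a difference, so the response at 10 min could be tested. Of the 148 members, 120 rose at 10 min, against 4.14% of all genes tested, and 4 fell, against 0.863%. The median difference was 0.80, against -0.01 over all genes. The level requirement favours genes that are high in waterlogged leaves: 119 members reached 5 FPKM in the 12 WT control libraries alone, 97 of which rose at 10 min, and 5 would miss the level without the waterlogged libraries at 10 min. Controls moved too: between 0 and 10 min 61 members rose in untreated WT leaves, against 2.61%, and 7 fell, against 5.32%, and with only those groups in the fit 39 rose.

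**Figure D2:**
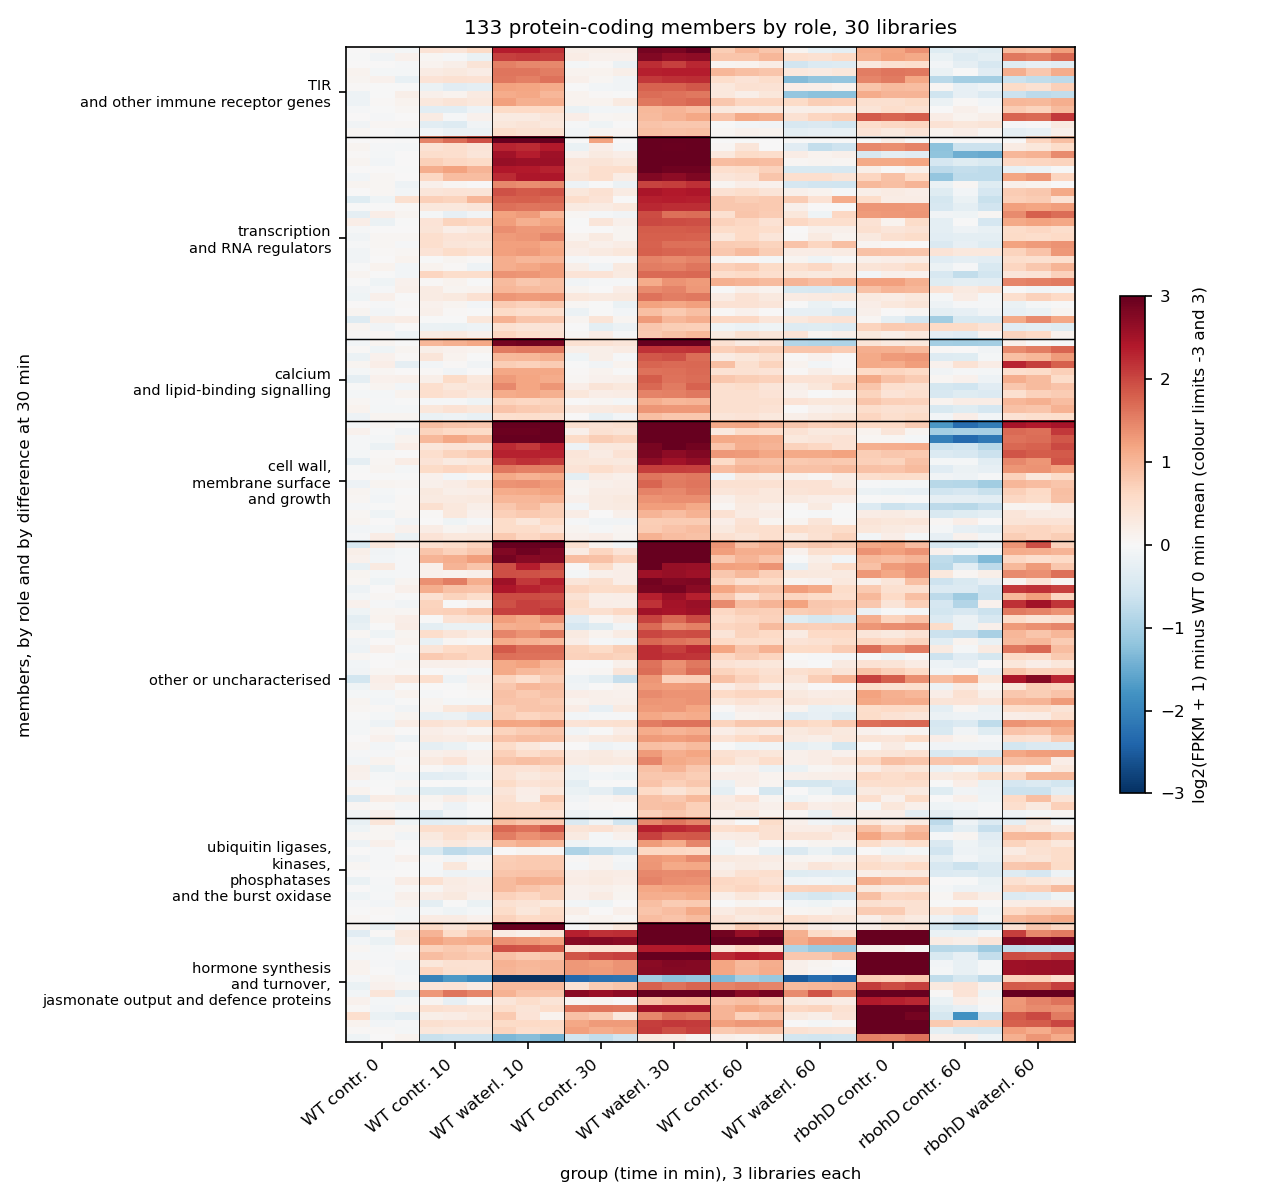
Heat map of log2(FPKM + 1) minus the WT 0 min mean for 133 protein-coding members (rows, by role and by difference at 30 min) in 30 libraries (columns, 10 groups). Waterlogged WT leaves at 10 and 30 min are red in nearly every role, while the hormone and defence rows at the bottom are strongest in the libraries labelled rbohD at 0 min, where their median was 3.31.

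Transcription and RNA regulators made up 27 members, and 26 of them rose at 10 min with a median of 0.98. SZF1 and CZF1 are CCCH zinc finger proteins of salt and chitin responses. SZF1 stood at 31.5, 29.1 and 28.5 FPKM in controls at 10 min and at 121, 116 and 115 FPKM in waterlogged leaves. At 30 min it stood at 24.6, 25.01 and 23.5 against 179, 179 and 175 FPKM, and at 60 min at 36.2, 37.0 and 36.4 against 19.7, 20.02 and 19.6 FPKM. The groups did not overlap at any of these times, and at 60 min the order was turned round. At 10 min the SZF1 difference was 1.95 ± 0.04 (SE, n = 3 per group here and below, limma adjusted p = 4.4e-19). Each SE rests on the spread within all 10 groups of the fit, not only the groups compared. CZF1 rose by 1.36 ± 0.08 (limma adjusted p = 9.69e-12).

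CAF1a, a deadenylase that shortens poly(A) tails, rose by 1.54 ± 0.15 at 10 min (limma adjusted p = 4.53e-08). STZ, a zinc finger repressor of salt and oxidative stress responses, stood at 9.41, 10.0 and 9.07 FPKM in controls and 36.9, 35.3 and 39.2 FPKM in waterlogged leaves at 10 min. All 3 waterlogged libraries lay above all controls, by 1.86 ± 0.13 (limma adjusted p = 2.41e-10). The MYB factors MYBR1 (also MYB44, of abscisic acid and wound responses), MYB77 (of auxin responses) and MYB51 (a regulator of indole glucosinolates) rose by 1.30, 1.27 and 1.18, with limma adjusted p of 3.02e-15, 6.33e-13 and 3.61e-08. The 3 GRAS proteins SCL13, AT3G46600 and AT5G59450 rose by 0.84, 0.74 and 0.47, and the AP2-domain factors DREB26 and RAP2.4 by 2.00 and 1.0. The heat shock factors of the repressor class AT-HSFB2B and HSFB2A rose by 0.60 and 0.80 (limma adjusted p = 7.91e-08 and 1.09e-08).

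ERF105, an ethylene response factor of cold responses, had the largest difference of the set but almost no level in controls. It stood at 46.6, 44.7 and 47.0 FPKM at 10 min of waterlogging and at 76.9, 70.5 and 70.3 FPKM at 30 min. Controls at 10 min were at 1.79, 2.205 and 2.73 FPKM, and 17 of the 30 libraries, including all 3 of waterlogging at 60 min, were under 0.01 FPKM. It was the 1 protein-coding member with a library that low, and its differences depend on the pseudocount. Waterlogged leaves at 10 min lay above every control (3.87 ± 0.22, limma adjusted p = 3.84e-12).

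All 11 calcium and lipid-binding signalling members rose at 10 min, with a median of 0.83. The EF-hand protein AT4G27280 stood at 38.1, 40.1 and 42.8 FPKM in controls and 143, 146 and 139 FPKM in waterlogged leaves at 10 min. At 30 min it stood at 234, 215 and 217 FPKM and at 60 min at 9.65, 9.51 and 9.37 FPKM, which was below the 60 min controls at 26.1, 22.7 and 25.1 FPKM. Its rise at 10 min was 1.80 ± 0.06 (limma adjusted p = 1.99e-16). CPK32, a calcium-dependent protein kinase, rose by 1.17 ± 0.05 (limma adjusted p = 2.74e-14), CBP60G, a calmodulin-binding activator of salicylic acid synthesis, by 0.86 ± 0.11 (8.57e-06), and the touch-induced calmodulin-like TCH2 by 0.69 ± 0.07 (2.03e-07). Genes with EF-hand in the RefSeq product name, which leaves out CPK32, supplied 6 members of 40 tested. Among them MSS3 and AT2G46600 rose by 0.43 and 0.83. Of the 40, 10 rose and 1 fell at 10 min.

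Immune receptor genes were 12 members, and 11 rose at 10 min with a median of 1.04. TIR domains in plants cleave NAD to small signalling molecules. By RefSeq product name they occur in 10 members of 67 such genes tested, and all 10 rose, as did 27 of the 67. AT1G66090, a truncated TIR-NBS protein, stood at 4.98, 4.84 and 5.72 FPKM in controls and 22.1, 22.3 and 19.8 FPKM in waterlogged leaves at 10 min, a rise of 1.86 ± 0.09 (limma adjusted p = 6.87e-13). AT5G41750 rose by 2.13 ± 0.07 (limma adjusted p = 5.29e-16) and WRR4, a receptor for white rust, by 0.86 ± 0.06 (1.98e-10). ADR1-L2, a helper receptor that acts downstream of TIR proteins, rose by 0.79 ± 0.07 (limma adjusted p = 2.15e-08). AT2G34930, an LRR protein, was at 0.19 and not called.

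Several of these genes are neighbours. AT1G72900, AT1G72910, AT1G72920 and AT1G72940 lie on the plus strand of chromosome 1 between 27432178 and 27443859, with gaps of 707 to 2772 bases. AT5G41740 and AT5G41750 lie 713 bases apart on chromosome 5. Reads shared between such related genes may be divided by the counting, so their values are not fully separate. The members differed at 60 min: waterlogged leaves stood at 1.74, 1.95 and 2.03 FPKM for AT1G72920 against 8.68, 7.90 and 8.71 FPKM in controls, and at 2.76, 2.66 and 3.01 for AT5G41750 against 3.73, 3.76 and 4.29 FPKM.

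All 14 members among ubiquitin ligases, kinases, phosphatases and the burst oxidase rose at 10 min, with a median of 0.70. RBOHD stood at 16.8, 15.6 and 15.6 FPKM in controls and 31.8, 32.4 and 32.8 FPKM in waterlogged leaves at 10 min, then at 48.7, 48.4 and 49.4 FPKM at 30 min and 13.3, 13.5 and 13.8 FPKM at 60 min. The waterlogged libraries were above the controls at 10 and 30 min and below them at 60 min, when controls were at 21.2, 24.1 and 24.96 FPKM. The rise at 10 min was 0.97 ± 0.06 (limma adjusted p = 1.06e-10). ATL2, a chitin-induced RING ubiquitin ligase, rose by 1.21 ± 0.09 (limma adjusted p = 1.62e-09). The salicylic acid related RING1 rose by 0.68, RDUF1, of abscisic acid responses, by 0.76, and AT1G20823 by 0.48. MKK9 and MKK4, kinases that activate MAP kinases, rose by 1.09 and 0.55, and the phosphatase AP2C1, which inactivates MAP kinases, by 0.73 (limma adjusted p = 4.08e-08, 4.08e-07 and 2.3e-06). The other PP2C members AT4G33920 and AT1G68410 rose by 0.78 and 0.43.

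Of 16 members of the cell wall, the membrane surface and growth, 15 rose at 10 min with a median of 0.997. PHI-1 and EXO are related proteins of brassinosteroid-promoted growth. PHI-1 stood at 15.8, 15.0 and 14.8 FPKM in controls and 122, 109 and 111 FPKM in waterlogged leaves at 10 min. At 30 min it stood at 11.6, 11.2 and 11.6 against 166, 149.5 and 159 FPKM, and at 60 min at 18.8, 19.2 and 17.0 against 14.8, 13.7 and 14.1 FPKM. Waterlogged libraries lay above all controls at 10 and 30 min and below them at 60 min, and the rise at 10 min was 2.82 ± 0.09 (limma adjusted p = 2.11e-16). EXO rose by 2.34 ± 0.10 (limma adjusted p = 2.61e-14). TCH4, a touch-induced enzyme that cuts and rejoins xyloglucan, went from 70.1, 79.6 and 72.5 to 324, 337 and 321 FPKM at 10 min, by 2.13 ± 0.07 (limma adjusted p = 3.2e-16). The xyloglucan makers XT1 and CSLC04 rose by 1.09 and 0.92. NHL2 was at 0.35 and not called.

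**Figure D3:**
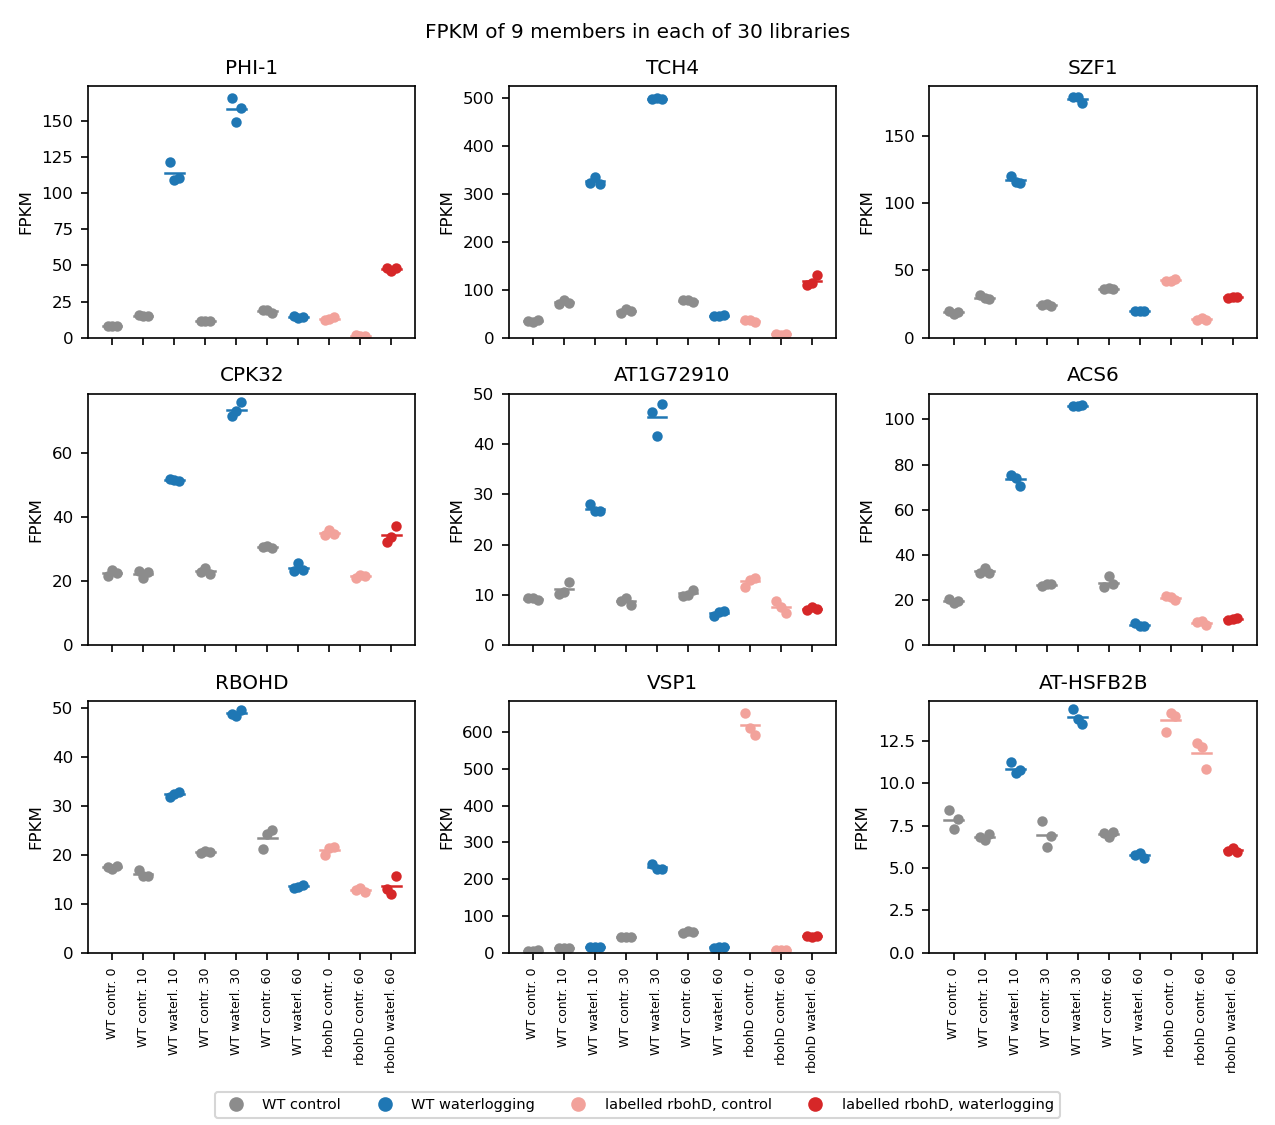
FPKM (y axis, from 0) of 9 members in each of 30 libraries, with 1 point per library and a line at the mean of each group (x axis). In all 9 the waterlogged WT libraries lay above the controls at 30 min, VSP1 at 226 to 240.3 against 41.7 to 42.8 FPKM, and PHI-1 and TCH4 were also high in waterlogged leaves labelled rbohD at 60 min.

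The hormone and defence members were divided at 10 min. Of the 16, 7 rose and 3 fell at 10 min, with a median of 0.18. ACS6, which makes the ethylene precursor, and CYP707A3, which breaks down abscisic acid, rose early: ACS6 went from 32.0, 34.0 and 31.9 to 75.5, 74.2 and 70.7 FPKM (1.15 ± 0.06, limma adjusted p = 4.67e-12) and CYP707A3 from 4.32, 3.60 and 4.20 to 28.6, 27.2 and 27.2 FPKM (2.51 ± 0.11, 2.79e-14). In both the groups did not overlap. OPCL1, of jasmonate synthesis, rose by 0.62 (limma adjusted p = 7.29e-05).

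Several genes known to respond to jasmonate did not pass the test at 10 min. VSP1 and VSP2 encode storage proteins with phosphatase activity and are common markers of jasmonate. VSP1 stood at 14.2, 12.7 and 13.2 FPKM in controls and 16.0, 15.3 and 14.4 FPKM in waterlogged leaves at 10 min (0.18 ± 0.08, limma adjusted p = 0.371), close but without overlap. At 30 min it stood at 42.6, 42.8 and 41.7 against 240.3, 226 and 228 FPKM, and at 60 min at 54.8, 59.3 and 55.0 against 13.1, 15.2 and 15.5 FPKM. Control levels were higher at each later time, and waterlogged leaves were above them at 30 min and below them at 60 min. VSP2 was at -0.02, the lectin JAL23 at 0.05, CORI3, a coronatine-induced aminotransferase relative, at 0.14 and the knottin AT2G43530 at 0.19 at 10 min, and limma called none of them.

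NATA1, a jasmonate-induced acetyltransferase of ornithine, stood at 5.75, 5.11 and 5.18 FPKM in controls and 41.6, 44.1 and 41.7 FPKM in waterlogged leaves at 30 min. At 60 min it stood at 8.89, 7.18 and 8.44 against 1.80, 1.005 and 0.796 FPKM, the lowest difference among protein-coding members (-2.08). VSP1 at -1.88, AT1G72920 at -1.70 and ACS6 at -1.54 came next. BGL2, a glucanase known from salicylic acid responses, fell at 10 min from 9.63, 11.9 and 10.5 to 2.67, 3.57 and 3.55 FPKM (-1.45 ± 0.09, limma adjusted p = 6.32e-11). It had stood at 40.8, 44.2 and 40.5 FPKM in WT at 0 min, so the controls had already dropped. At 30 min waterlogged leaves stood at 19.7, 17.3 and 18.2 FPKM against 7.35, 8.09 and 8.24 FPKM in controls. That was above the controls but below the 0 min level. GSTF6, a glutathione transferase, fell as well (-0.72 ± 0.08, limma adjusted p = 3.95e-07). Its controls had dropped from 19.1, 21.2 and 22.4 FPKM at 0 min to 12.8, 13.1 and 13.3 FPKM at 10 min. AT4G17470 was called lower (-0.53 ± 0.15, limma adjusted p = 0.0315), a call lost with a pseudocount of 0.1 and without either of replicates 2 and 3 in either group.

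The 15 noncoding members could hardly be assessed. Of them 12 were listed at 0 in at least 1 library, and 9 were at 0 in all 3 WT controls at 30 min. SNOR108, a small nucleolar RNA, was listed at 0, 0 and 0 in those controls and at 0, 0 and 882 FPKM in waterlogged leaves, so 1 library carried its difference. At 10 min 2 noncoding members were called: AT1G04833 rose by 0.86 and AT1G67105 fell by 2.10. AT1G67105 had opposite differences at 10 and 30 min: it stood at 28.6, 29.4 and 31.1 FPKM in controls at 10 min, 5.01, 7.34 and 6.24 in waterlogged leaves at 10 min, 4.82, 4.65 and 5.58 in controls at 30 min and 31.9, 33.3 and 30.4 in waterlogged leaves at 30 min.

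The libraries labelled rbohD did not enter the rule. At 60 min 120 of the 148 members were higher in waterlogged leaves labelled rbohD than in their time-matched controls, against 26.3% of all genes tested, and 11 were lower, against 32.7%, or 7 with only the groups compared in the fit. The median difference was 0.90, against -0.05 over all genes. The calls at 10 min in WT and at 60 min under the rbohD label compare different libraries. They share the fit and the spread of each gene, so they are not independent. In both, 105 members rose, which is 87.5% of each list, against 3.46% of all genes tested. Of all 724 genes higher at 10 min in WT, 606 were also higher under the rbohD label at 60 min, so the overlap is not particular to the members. At 60 min in WT the members stood at most 0.1 above the controls by the rule. Among protein-coding members, 68 had waterlogged libraries all below the controls in WT and all above them under the rbohD label, a pattern found in 2.13% of all genes tested. The rule, which kept the WT difference at 60 min low, favours the WT side of this count. The difference between the 2 labels was not tested, because the WT side was part of the rule.

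PHI-1 stood at 1.74, 0.830 and 1.13 FPKM in controls labelled rbohD and 48.6, 45.8 and 48.6 FPKM in waterlogged leaves at 60 min (4.47 ± 0.09, limma adjusted p = 1.09e-21). TCH4 stood at 7.74, 6.20 and 7.16 against 109.8, 115 and 131 FPKM (3.89 ± 0.07, 1.53e-22). In both, the waterlogged libraries lay far above the controls. AT4G17470 rose by 3.51 ± 0.15 (limma adjusted p = 9.19e-16) and EXO by 2.82 ± 0.10 (3.7e-17). All 16 cell wall members, all 16 hormone and defence members and all 11 calcium members rose, as did 23 of 27 regulators, 12 of 14 in the ligase and kinase role, 8 of 12 immune receptor genes and 32 of 37 others.

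Lower calls were fewer. AT-HSFB2B stood at 12.4, 12.2 and 10.8 FPKM in controls labelled rbohD and 5.996, 6.18 and 5.93 FPKM in waterlogged leaves (-0.86 ± 0.06, limma adjusted p = 9.43e-12), without overlap. HSFB2A fell by 0.41 and the RING protein AT1G20823 by 0.49 (limma adjusted p = 2.5e-05 and 3.86e-05). The TIR genes AT1G72940, AT5G58120 and AT3G44630 fell by 0.31, 0.32 and 0.23, and the AT3G44630 call was lost without replicate 1 or 2 of the waterlogged group and with only the groups compared in the fit. Of the TIR members 6 rose and 3 fell. The noncoding AT1G31258 and AT2G15128 were called lower, with 0 FPKM in all 3 waterlogged libraries. Controls of AT1G31258 were at 0, 523 and 165 FPKM, so the groups overlap, and its call was lost with only the groups compared in the fit. RBOHD stood at 12.9, 13.1 and 12.4 FPKM in controls and 13.0, 11.9 and 15.7 FPKM in waterlogged leaves, and was not called (0.07 ± 0.06, limma adjusted p = 0.372).

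These differences came with a change in the controls. From 0 to 60 min under the rbohD label, 123 members fell in untreated leaves, against 13.0% of all genes tested, and 1, the noncoding AT1G31258, rose, against 10.2%. In the protein-coding members the median was -0.85. The rbohD controls at 60 min stand on both sides here, as the base of the waterlogging difference and as the later point of the control change. Against 0 min, waterlogged leaves labelled rbohD at 60 min were higher for 50 members, against 23.1%, and lower for 42, against 31.7%, with a median of 0.00 against -0.05 over all genes. The share lower lies near that of all genes, so it is no result about the members.

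The roles were not alike in that comparison. Of the cell wall role 13 of 16 were above the 0 min level and the other 3 were not called, with a median of 0.70. PHI-1, at 12.5, 12.6 and 14.3 FPKM at 0 min, was higher by 1.79 ± 0.09 (limma adjusted p = 4.6e-14), TCH4 by 1.71 ± 0.07 (9.22e-16) and XT1 by 0.98 ± 0.07 (3.13e-11). In the hormone and defence role 1 gene was higher, CYP707A3 at 0.33, and 12 were lower, with a median of -1.30. In the immune receptor role 3 were higher and 7 lower, in the regulator role 11 and 8, in the calcium role 5 and 1, in the ligase and kinase role 4 and 5, and in the others 12 and 8. NPR3, a salicylic acid receptor, was higher by 1.24 (limma adjusted p = 9.31e-14) while STZ was at -1.06 (2.78e-07).

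**Figure D4:**
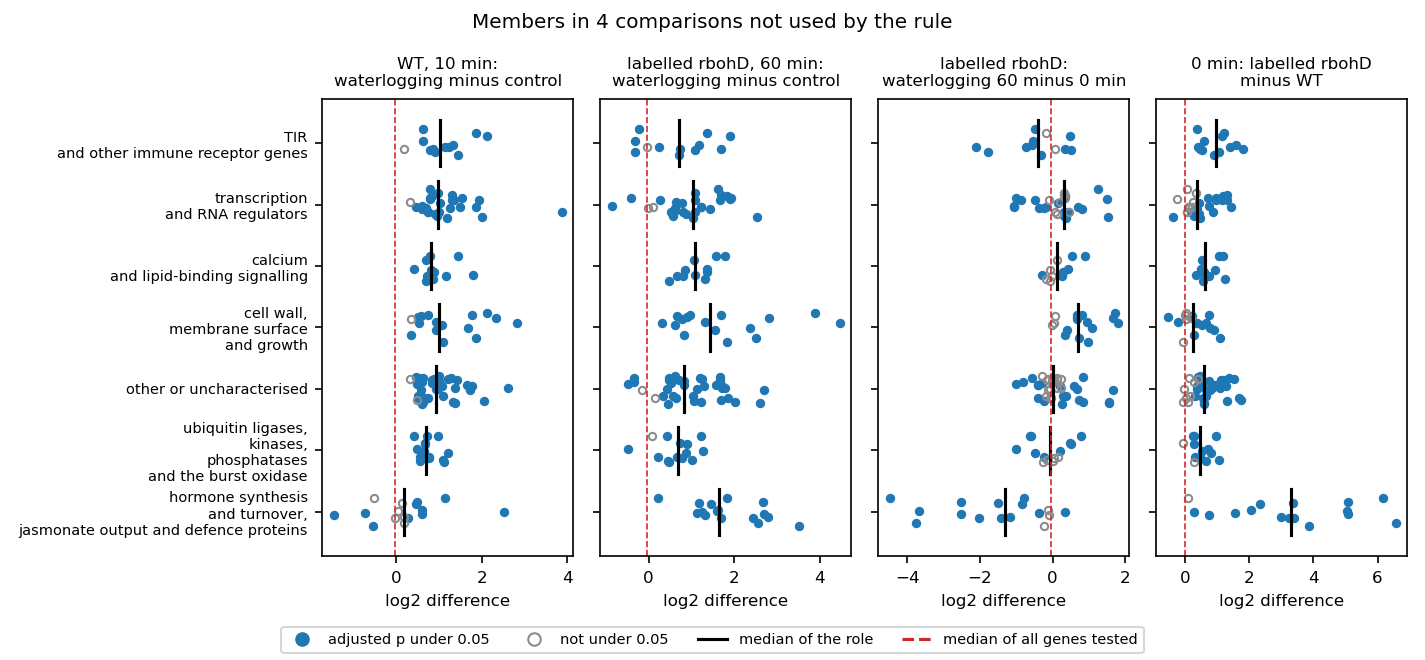
Log2 difference (x axis) of each protein-coding member, by role (y axis), in 4 comparisons that the rule did not use as a difference. Filled points have a limma adjusted p under 0.05, black lines are role medians and red dashed lines the median of all genes tested. Hormone and defence members had medians of 0.18 in WT at 10 min, 1.65 under the rbohD label at 60 min, -1.30 against 0 min and 3.31 between the labels at 0 min.

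At 0 min, before treatment, 106 members were higher in the libraries labelled rbohD than in WT, against 16.4% of all genes tested, and 4 were lower, against 16.0%. The median was 0.58, against -0.01 over all genes. The rbohD libraries at 0 min are also the base of the control change and of the comparison against 0 min above. Those results and this one are therefore not separate observations. With a term in the fit for 18S rRNA above or below 3000 FPKM 79 were higher. Genotype label and rRNA level coincide in these 2 groups and cannot be told apart by them. Within groups the term varies only in WT waterlogging at 60 min, so replicate 3 of that group sets its size. The hormone and defence role stood out by size, with a median of 3.31. Roles were assigned with earlier results of these data known, so this size is a description. The role includes AT3G28290 and AT3G28300, whose product family, DUF677, names no hormone or defence function. Their relative AT5G66675 was placed among the others. VSP1 stood at 5.22, 4.70 and 6.92 FPKM in WT and 651, 611 and 591 FPKM under the rbohD label (6.56 ± 0.08, limma adjusted p = 2.6e-25). NATA1 stood at 0.0525, 0.363 and 0.661 against 93.1, 90.5 and 103 FPKM (6.17 ± 0.16, 5.57e-19). JAL23 stood at 8.52, 7.75 and 8.64 against 318, 291 and 307 FPKM (5.04 ± 0.07, 9.85e-25). In each, all libraries labelled rbohD lay far above all WT libraries.

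The copies AT3G28290 and AT3G28300, both named AT14A, gave nearly the same values, and the counting may split shared reads between them. AT3G28290 stood at 15.2, 14.0 and 13.3 FPKM in WT and 519, 509.8 and 508 FPKM under the rbohD label at 0 min. By 60 min in untreated leaves under that label it was at 13.5, 11.96 and 13.4 FPKM. The same course held for VSP1, at 6.73, 6.34 and 7.36 FPKM, and for JAL23, at 6.23, 6.89 and 8.12 FPKM. Waterlogged leaves at 60 min lay between, with AT3G28290 at 86.9, 88.3 and 90.1 FPKM, VSP1 at 44.6, 43.8 and 46.5 FPKM and JAL23 at 22.4, 24.0 and 23.2 FPKM. For the cell wall role the median at 0 min was 0.25, with 9 of 16 higher and 2, AGP17 and CSLC04, lower. PHI-1 was higher by 0.65 (limma adjusted p = 4.15e-06), and TCH4 was at 0.02 (0.882). RBOHD was higher by 0.25 ± 0.06 (limma adjusted p = 0.00383), a call lost with the rRNA term, which has the limit given above.

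Lists of genes from the same pathways, with some members among them, are given as counts to be read against the shares of all genes tested, 4.14% higher and 0.863% lower at 10 min in WT and 26.3% higher and 32.7% lower under the rbohD label at 60 min. Of 17 tested receptors and burst oxidases 5 rose at 10 min in WT, and 14 rose and 1 fell under the rbohD label at 60 min. The same counts were 5 and 1, then 12 and 1, of 14 ubiquitin ligases, and 4 of 8, then 8 of 8, CCCH zinc finger and deadenylase genes that rose. Of 21 calcium signalling genes 11 rose at 10 min, and 16 rose and 4 fell under the rbohD label. Of 7 protein phosphatases 2 rose, then 2 rose and 3 fell, the latter close to the shares of all genes. Of 18 transcription regulators 15 rose at 10 min, and 13 rose and 4 fell under the rbohD label. Of 12 cell wall and growth genes 8 rose and 1 fell, then 12 rose. Of 13 genes of hormone synthesis and turnover 4 rose, then 12 rose and 1 fell. The 5 guard cell, phloem and trichome markers stood between -0.17 and 0.15 at 10 min, and 2 rose and 2 fell under the rbohD label at 60 min, with differences of -0.81 to 0.27. The 5 leaf markers stood between -0.03 and 0.04 at 10 min, and 1 rose and 2 fell under the rbohD label. Between the labels at 0 min 4 of the 5 leaf markers were lower, with differences of -0.44 to -0.00, and waterlogged leaves labelled rbohD at 60 min had all 5 above 0 min, by 0.11 to 0.37. Their part in the results was not tested.

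The members shared features that the rule did not use. A single exon was annotated for 55 of 133 protein-coding members, 41.4%, against 15.1% of 16809 protein-coding genes tested and 12.1% of those at or above 5 FPKM in WT. The median number of exons was 2 against 4, and the median gene length 1879 against 2460 bases. Single-exon genes were 11 of 16 in the cell wall role, 8 of 14 in the ligase and kinase role, 7 of 11 in the calcium role, 11 of 27 regulators and 15 of 37 others, but 1 of 12 immune receptor genes and 2 of 16 hormone and defence members. These shares are descriptions and carry no test.

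In the 250 bases before the gene start, TTGAC on either strand occurred in 62.4% of the protein-coding members and in 44.2% of all 16809 promoters of that length. TTGACT, which contains it, occurred in 39.8% against 18.2%. CGCG occurred in 24.8% against 10.8%, ACGCGT, which contains it, in 12.8% against 1.74%, CGCGTG in 12.03% against 2.94% and CGCGTT in 9.02% against 2.69%. The cell wall role held CGCG in 8 of 16 and the hormone and defence role in 2 of 16, while TTGAC was in 8 and 10 of them. Within the window CGCG was most frequent close to the start, in 9.77% of members in each of the last pair of 50-base bins against 2.88% and 2.81% of all promoters, and in 2.26% against 1.83% in the farthest bin. TTGAC showed no steady slope, with 18.05% of members in the farthest bin and 21.8% in the nearest, against 10.5% of all promoters in each. The nearest bin was its highest, and the second farthest its lowest, at 14.3% against 11.3%.

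The other motifs searched lay on both sides of the promoters at large. CACGTG, the G-box, occurred in 5.26% against 7.42%, ACGTG in 27.1% against 23.2%, CCGAC in 12.03% against 13.3%, TGACGT in 7.52% against 8.01%, AACGTT in 6.02% against 6.18% and AAAATATCT, the evening element, in 1.504% against 2.48%. GCCGCC occurred in 3.76% against 1.95%, GAANNTTC in 15.0% against 9.19%, AAGTCAA, which overlaps the W-box on the opposite strand, in 21.8% against 8.66%, TTGACC in 17.3% against 11.8% and AAACGCG in 6.02% against 1.36%. GTCAACG was found in 1.504% of members against 2.25% of promoters. CACGTGTC, a longer G-box, was found in 2.26% against 2.50%, and GACGTC, the core of a C-box, in 0.752% against 2.53%. ATTTGACTT, a longer W-box, was found in 0.752% against 0.958%. A match is a description of the sequence and not evidence of binding, and 21 motifs were searched on both strands with several of them overlapping.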

How the data were processed

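RNA from systemic leaves was sequenced in 30 libraries, 3 in each of 10 groups. The deposited FPKM values per gene were made by the authors with Trim Galore 0.6.7, HISAT2 2.2.1, Cufflinks 2.2.1 and Cuffdiff on the TAIR10 build, per the submitters' processing notes. FPKM values are not counts, so no count test was run. Of 32826 rows, 32820 genes were kept. The widths of the authors' intervals around the FPKM values imply 10.9 M to 13.3 M fragments per library, an approximation, and low genes are the least precise.

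Values were taken as log2(FPKM + 1), so fold changes of low genes are understated. The 17491 genes averaging 1 FPKM or more across all libraries were fitted with limma 3.58.1 in R 4.3.3, with all 10 groups in 1 model and 20 residual degrees of freedom. Each test was two-sided, and p-values were Benjamini-Hochberg adjusted over all genes tested, with a threshold of 0.05. The script was tested on simulated data. Tables and windows were made with Python 3.11.15, pandas 2.3.3, numpy 2.4.6 and Biopython 1.88. Gene annotation and genome sequence came from RefSeq TAIR10.1, which matched 99.1% of genes, 99.9% of the matched nuclear ones with identical boundaries.

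The members, roles and gene lists were chosen with earlier results of these data known. Named genes were the members with the largest changes in each comparison, those nearest the thresholds, up to 4 members of each list, and RBOHD. Families of 3 or more members that share a word in the RefSeq product name were named as well. Other genes named in the text were chosen after their values were seen. The WT differences at 30 and 60 min chose the members. The limma calls on these 30 and 60 min differences are therefore a description and not a test of the members. Alternatives were the pseudocount, the filter on low values, the groups in the fit, a replicate block, quantile normalization, the variance model and leaving out each library. An 18S rRNA term (above or below 3000 FPKM) and the restriction to protein-coding members were added after seeing the data.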

Additional observations from a re-analysis of the deposited data

Results flagged for a closer look

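At 60 min, 25 of the members named by the stated rule had every waterlogged WT library below every WT control and every waterlogged library labelled rbohD above its controls. Of all genes tested, 2.13% showed this pattern. Over all 133 protein-coding members the count was 68. The WT direction was part of how the members were chosen, and some members were named for their rise under the rbohD label. Both sides of the pattern are thus favoured here, and the difference between the labels was not tested. The log2 differences under the rbohD label were as follows. In the cell wall role PHI-1 was at 4.47, TCH4 at 3.89. Among regulators DREB26 was at 2.54, MYBR1 at 1.67, SZF1 at 1.09, AT3G46600 at 1.08 and MYB77 at 0.63. Among hormone and defence members AT4G17470 was at 3.51, the copies AT3G28290 and AT3G28300 of AT14A at 2.68 and 2.69, NATA1 at 1.84, BGL2 at 1.33, CYP707A3 at 1.25, GSTF6 at 1.12 and ACS6 at 0.21. Calcium signalling held MSS3 at 1.36, CBP60G at 1.33, TCH2 at 1.06, AT2G46600 at 0.85 and CPK32 at 0.65. The remaining ones were AT1G07135 at 1.72, ATL2 at 0.87, WRR4 at 0.73, AT4G33920 at 0.66 and AP2C1 at 0.42.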

How the results depend on the processing

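Of 198 counts under alternatives, 190 were within 1.5 times the reported count. With only the groups compared, the members lower under the rbohD label at 60 min were 7, WT controls from 0 to 10 min gave 39 higher and 4 lower, and rbohD controls from 0 to 60 min gave 0 higher (0 at an unadjusted limma p under 0.05). That last count was also 0 over protein-coding members, and with the rRNA term 0 members were lower at 0 min (3 unadjusted). Leaving out 1 library gave 119 to 120 higher and 3 to 4 lower at 10 min in WT, 115 to 119 and 9 to 11 under the rbohD label at 60 min, 44 to 52 and 39 to 43 against 0 min, 100 to 106 and 3 to 4 at 0 min, 49 to 54 and 5 to 8 for WT controls, and 0 to 1 and 117 to 123 for rbohD controls. The rule then chose 144 to 157 genes, at least 138 of them shared. A pseudocount of 0.1 chose 157, with 147 shared. Of 1694 values of named genes, 41 lost the call and 0 turned. Those lost include ACS6 and CZF1 under the rbohD label at 60 min, with only the groups compared or without replicate 3 of the controls. The causes were not tested. Replicate numbers did not pair the libraries, with correlations of deviations from -0.11 to 0.15. With the replicate block 120 members were higher at 10 min and 120 under the rbohD label at 60 min, as without it.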
